A study of Mus musculus with 2 samples.

Results

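Cluster 6 is 1 of 3 clusters of mouse esophagus cells that the depositing authors annotated as fibroblast. Its members are the cell barcodes whose deposited cluster number is 6, which are 300 of 4853 barcodes, 185 from the control library and 115 from the Keap1 cKO library. The marker counts below go against a single label. Barcodes led by fibroblast markers were the largest class, but the cluster also held 10 barcodes with muscle stem cell genes and, in the control library only, 93 barcodes in which fibroblast and lymphatic endothelial RNA lay together with hemoglobin or keratin RNA. The cluster is therefore called here by its number.

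The study compared single cells of the esophagus, with the muscle layer removed, from control mice of genotype Keap1 floxB/floxB and from Keap1 cKO mice of genotype K5CreERT2::Keap1 floxB/floxB. All mice were hybrids of C57BL/6J and BALB/c. The floxed Keap1 alleles are shared by both groups, and the groups differ by the Cre transgene. The keratin 5 promoter drives that Cre in basal epithelial cells, so the stromal cells described here are not its target. The tissue was dispersed with trypsin-EDTA and a gentleMACS dissociator, and polyA RNA was counted from the 3′ end in droplets. How many mice were pooled, how old they were and when Cre was induced is not stated in the labels. Each group is 1 library, so no difference between them has a replicate check and no test of the genotypes was possible. Intervals below are 95% intervals, and the upper limit given beside a count of 0 is the share that 3 barcodes would make. Both cover counting error only.

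Fibroblasts of the esophageal lamina propria secrete the fibrillar collagens, elastin and small proteoglycans that hold the mucosa together. Lymphatic endothelial cells line the vessels that drain this layer and are known by the chemokine Ccl21a, the sheath protein Mmrn1 and the hyaluronan receptor Lyve1. Mural cells, which wrap vessels as smooth muscle cells or pericytes, carry the contractile proteins Acta2 and Tagln. The mouse esophagus is surrounded by striated muscle, whose satellite cells (Pax7, Myf5) are the resident stem cells and switch on Myog when they commit to differentiate.

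The barcodes of cluster 6 were shallow. In the control library the median was 1207 UMIs (unique molecular identifiers, 1 per captured transcript) per barcode, with a lowest value of 505 and a highest of 31967. In the Keap1 cKO library the median was 772 UMIs, from 500 to 17025. The deposited table holds no barcode under 500 UMIs, so many members sat close to its lower edge, and 50% of all 300 had under 1000 UMIs. The deep fibroblast clusters had medians of 11930 and 14798 UMIs (cluster 1, control and Keap1 cKO) and 13929 and 17163 UMIs (cluster 5). Only 24 barcodes of cluster 6 exceeded 5000 UMIs, 21 in the control and 3 in the Keap1 cKO library. Cluster 6 made up 7.48% of control barcodes (6.48 to 8.59%) and 4.83% of Keap1 cKO barcodes (4.0 to 5.77%). Hemoglobin transcripts took 4.65% of its UMIs, against 0.134% in cluster 1 and 0.0956% in cluster 5. The libraries held 30501227 (control) and 26036522 (Keap1 cKO) UMIs in all, and 5 barcode sequences occurred in both libraries, 0 of them in cluster 6.

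**Figure D1:**
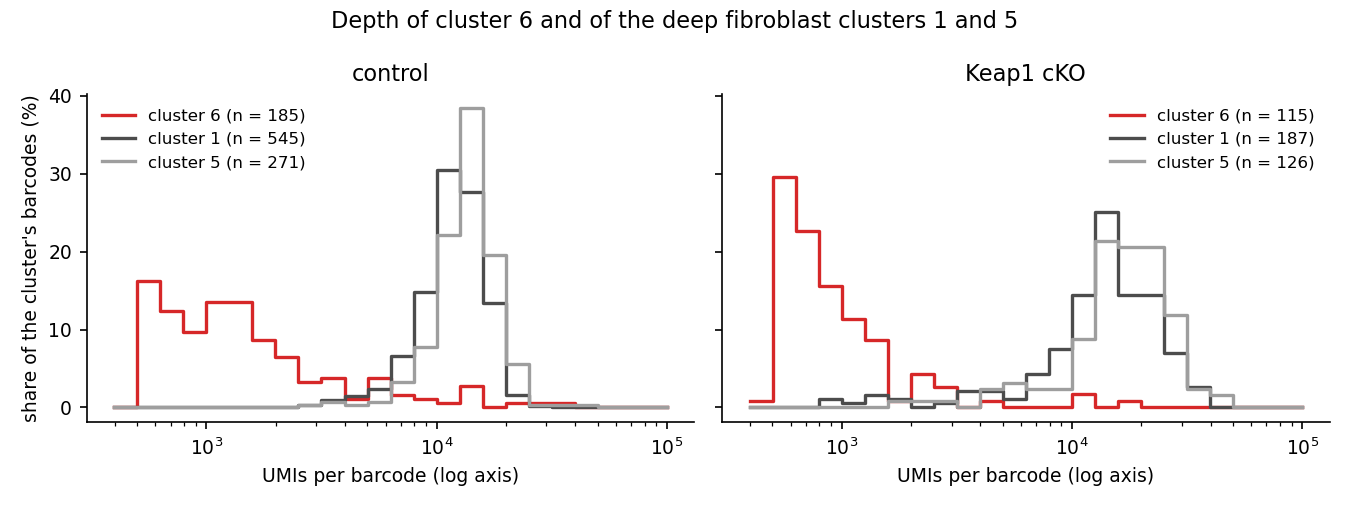
UMIs per barcode on a log axis for clusters 6, 1 and 5 in the control and Keap1 cKO libraries, drawn as the share of each cluster's barcodes per depth bin. The upper quartile of cluster 6, 2095 UMIs in the control and 1111 in the Keap1 cKO library, lies under the medians of clusters 1 and 5, and a small tail of its barcodes reaches their depth.

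Each barcode was assigned to the cell type with the most detected genes among up to 8 markers for each of 17 types. In cluster 6 fibroblast markers led in 91 of 185 control barcodes (49.2%, 41.8 to 56.6%) and in 85 of 115 Keap1 cKO barcodes (73.9%, 64.9 to 81.7%). Clusters 1 and 5 had 92.3% and 89.9% such barcodes over both libraries. Keratinocyte markers led in 46 control barcodes and in 1 Keap1 cKO barcode of cluster 6, erythroid markers in 11 and 8, lymphatic markers in 3 and 1, macrophage markers in 3 and 1, and myogenic markers in 1 and 1. In 30 control and 18 Keap1 cKO barcodes types tied or no type reached 2 markers. No barcode was led by mural, blood endothelial, skeletal muscle fibre, Schwann, mesothelial, adipocyte, cartilage, B cell, T cell, neutrophil or mast cell markers, which allows a share of up to 1.62% of control and 2.61% of Keap1 cKO barcodes for each. For some of these types few of the 8 markers were in the table and could lead, namely 2 for cartilage and tendon, 3 for adipocytes, 4 for B cells, 5 each for Schwann and mast cells and 7 for mural cells, so the limit covers barcodes called by these lists and not the cell types as such.

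A single leading type did not describe the shallow barcodes, because many held markers of several lineages. To compare this at equal depth, every barcode was thinned to 500 UMIs and the barcodes with at least 2 UMIs of each of 2 marker lists were counted. Fibroblast and lymphatic markers occurred together in 66 of 185 control barcodes of cluster 6 (35.7%, 28.8 to 43.0%). None of the 115 Keap1 cKO barcodes of the cluster had both, which allows up to 2.61%. The same count was 0 of 545 control barcodes in cluster 1 (up to 0.55%), 0 of 271 in cluster 5 (up to 1.11%) and 0 of 27 in cluster 18, the cluster in which lymphatic markers led in 41 of 42 barcodes. Fibroblast and keratinocyte markers occurred together in 53.5% of control and 8.70% of Keap1 cKO barcodes of cluster 6, against 5.87% and 6.42% in cluster 1. Fibroblast and erythroid markers did so in 35.1% and 55.7%, against 4.40% and 5.35% in cluster 1. Relative to the deep clusters, the erythroid combination was thus more frequent in both libraries of cluster 6, and the lymphatic and keratinocyte combinations were more frequent in its control library. Thinning a deep barcode also removes most of the free RNA it took up, so these shares compare the makeup of the RNA and not the amount of foreign RNA per droplet.

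For description the 300 barcodes were divided by their markers and depth, with limits chosen after their values were seen. The division gave 10 barcodes with at least 3 of 8 myogenic markers, 14 other barcodes over 5000 UMIs, 49 with at least 2 lymphatic UMIs and at least 5% hemoglobin, and 44 with at least 2 lymphatic and at least 5 keratinocyte UMIs. A further 3 had lymphatic UMIs without either, 50 had at least 5% hemoglobin only, 29 had at least 5 keratinocyte UMIs only, and 101 remained. Both mixed lymphatic sets came entirely from the control library, where they made up 26.5% (20.3 to 33.5%) and 23.8% (17.8 to 30.6%) of cluster 6. In the Keap1 cKO library 47 barcodes were in the hemoglobin set and 63 were among the remaining ones.

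**Figure D2:**
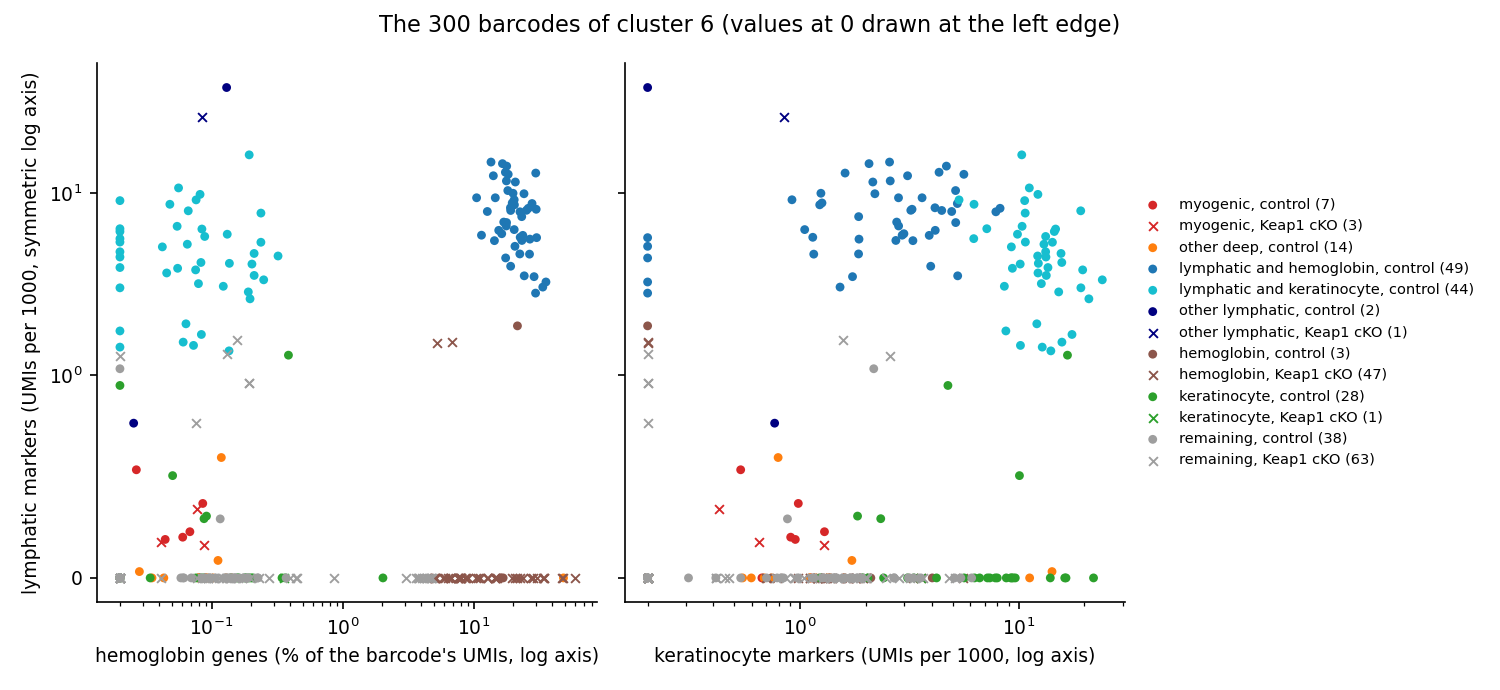
Lymphatic marker UMIs per 1000 in each of the 300 barcodes of cluster 6 (symmetric log axis) against the hemoglobin share (left) and the keratinocyte marker UMIs per 1000 (right, both log axes), with values at 0 at the left edge, dots for control and crosses for Keap1 cKO barcodes. The 49 lymphatic and hemoglobin barcodes and the 44 lymphatic and keratinocyte barcodes lie apart from each other in the hemoglobin share, and no cross lies among them.

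The 49 lymphatic and hemoglobin barcodes had 505 to 1559 UMIs (median 804) and a hemoglobin share of 10.6 to 35.7% (median 20.4%). Fibroblast markers were at 11.4 to 42.5 UMIs per 1000 in each of them (median 26.7), and lymphatic markers at 2.82 to 14.8 per 1000 (median 7.87). By the choice of the set, every one of these barcodes held hemoglobin and lymphatic UMIs, which include those of Ccl21a and Mmrn1. Fibroblast marker UMIs, on which no limit was set, were found in every one as well. Ccl21a, the lymphatic chemokine that draws dendritic cells and T cells, had 1 to 15 UMIs per barcode (median 4) and Mmrn1 had 40 UMIs in 28 barcodes. Genes that took no part in the choice also recurred. Ccl5, a chemokine of cytotoxic lymphocytes, had 80 UMIs in 37 of the 49 barcodes, with a median of 2 and a maximum of 5. It was at 0 in the 44 lymphatic and keratinocyte barcodes and in the 38 remaining control barcodes. Nkg7, a cytotoxic granule protein, had 19 UMIs in 14 of the 49 barcodes, and Cd52 had 22 UMIs in 17.

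The 44 lymphatic and keratinocyte barcodes were deeper, with 899 to 3291 UMIs (median 1550), and nearly free of hemoglobin (0 to 0.322%). Keratinocyte markers were at 5.34 to 24.2 UMIs per 1000 (median 12.5), lymphatic markers at 1.36 to 16.2 (median 4.48) and fibroblast markers at 3.18 to 13.6 (median 6.76). Fibroblast markers thus stood well under the level of the first set. Keratinocyte markers stood above it, but this set was chosen for at least 5 keratinocyte UMIs and the first was not. Krt5, the basal keratin, had 1 to 11 UMIs in each of the 44 barcodes, and Ccl21a had 1 to 17 (median 4.5). Among genes outside the markers, the keratinocyte lectin Lgals7 had 256 UMIs in 44 of 44 barcodes, the hemidesmosome collagen Col17a1 had 49 UMIs in 33, Igfbp5 had 124 in 41, the secreted growth factor Ptn had 71 in 34 and the endothelial junction protein Cldn5 had 35 in 23. In the 38 remaining control barcodes the same genes had 11 (Lgals7), 1 (Col17a1), 3 (Igfbp5), 0 (Ptn) and 1 (Cldn5) UMIs. The sums held 72959 (lymphatic and keratinocyte) and 50349 UMIs (remaining control). Lgals7, Col17a1 and Cldn5 are keratinocyte and endothelial genes, and the remaining barcodes are those left after barcodes with such markers were taken out. Their low counts there are therefore partly set by the rule. The genes differed between both mixed sets as well, since Col17a1 was at 0 and Igfbp5 at 4 UMIs in the 49 hemoglobin barcodes.

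Barcodes within a mixed set varied little among themselves. A chi-square per degree of freedom was computed over genes outside the markers, hemoglobins and mitochondrial genes, after thinning to 500 UMIs, where 1 is the value for barcodes that sample 1 common RNA pool. It averaged 1.10 in the lymphatic and hemoglobin set and 1.05 in the lymphatic and keratinocyte set. In the control library it was 1.39 in cluster 1, 1.31 in cluster 5, 1.37 in cluster 18, 1.66 in the keratinocyte set and 1.88 in the remaining barcodes. In the Keap1 cKO library it was 1.39 in the hemoglobin set and 2.04 in the remaining barcodes, against 1.55 in cluster 1. Within each mixed set, barcode sequences differed at a median of 12 of 16 bases. Among barcodes of at most 3291 UMIs in all other clusters, 0 met the rule of the first set, and 10 control and 1 Keap1 cKO barcodes met that of the second. Of these, 6 control barcodes were among the 26 such shallow barcodes of cluster 14, a share close to that in cluster 6. How RNA of several lineages came to share barcodes was not tested.

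Lymphatic RNA without other lineages was rare in cluster 6. Over the cluster, Ccl21a had 511 UMIs in 98 barcodes, of which 228 were in the lymphatic and hemoglobin set and 240 in the lymphatic and keratinocyte set. The gene lies on chromosome 4 at 42772860-42773993 (mm10, minus strand) beside near-identical copies, so its counts may include theirs, and Ccl21b and Ccl21c were not analysed here. Mmrn1 had 89 UMIs in 58 barcodes, 40 and 39 of them in the mixed sets. A single control barcode of 767 UMIs had 29 lymphatic UMIs, 21 of Ccl21a and 5 of Mmrn1, with 0 fibroblast and 0 keratinocyte UMIs. A single Keap1 cKO barcode of 1190 UMIs had 31 lymphatic UMIs, 19 of Ccl21a, 3 of Mmrn1 and 6 of Lyve1, and likewise 0 fibroblast UMIs. These 2 barcodes, at 37.8 and 26.1 lymphatic UMIs per 1000, lay at the level of cluster 18 (33.4 in the control and 25.3 in the Keap1 cKO library), while the sums of the mixed sets lay at 8.09 and 5.0. The third barcode with lymphatic UMIs alone, a control barcode of 3929 UMIs, had 3 of them, all of Sema3d, beside 100 fibroblast UMIs.

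Thinned to 500 UMIs, Ccl21a was detected in 45.4% of control and 1.74% of Keap1 cKO barcodes of cluster 6. Without thinning the shares were 51.4% and 2.61%. Erythrocytes of cluster 7 should lack the gene and so serve to show free RNA. After thinning, 0 of 178 control (up to 1.69%) and 0 of 120 Keap1 cKO erythrocytes (up to 2.50%) held it. Their median depths were 10831 and 10272 UMIs, and hemoglobin took 93.5% and 93.1% of their UMIs. Thinning therefore left few other UMIs, and the thinned value of 0 cannot show the level of free RNA. In cluster 18 the thinned shares of Ccl21a were 85.2% and 86.7%, and in cluster 1 they were 0.55% and 0.53%. At full depth 7 of 178 control erythrocytes (3.93%) and 4 of 120 Keap1 cKO erythrocytes (3.33%) held a Ccl21a UMI. Without thinning, the control share in cluster 6 was above the erythrocyte share of its library, and the Keap1 cKO share was not.

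The myogenic barcodes were 7 control and 3 Keap1 cKO barcodes, with 7489 to 17025 UMIs, and held 19.2% of all UMIs of the cluster. By leading type, 1 control and 1 Keap1 cKO barcode of these were called myogenic, and the others tied or were called fibroblast or keratinocyte. Over the 10 barcodes, myogenic markers had 364 UMIs, mural markers 334 and fibroblast markers 308. Pax7 (chromosome 4, 139737062-139833528, minus strand), the transcription factor that marks satellite cells, was detected in 9 of the 10, with 1, 6, 2, 1, 6, 5 and 3 UMIs in the control and 1, 2 and 0 in the Keap1 cKO barcodes. Myf5, a myogenic determination factor, was detected in all 10 with 40 UMIs. Chodl, a membrane lectin, had 79 of the cluster's 81 UMIs in 9 of them, and Cdh15, a muscle cadherin, was detected in 9. Notch3 and its target Heyl had 32 of 33 UMIs in 7 barcodes and 29 UMIs in 9 barcodes, and Des, the muscle intermediate filament protein, had 51 of 54 UMIs in all 10. Genes outside the marker list included the imprinted gene Mest (47 UMIs in 8 barcodes), the adhesion molecule Ncam1 (28 in 8), the acetylcholine receptor anchor Rapsn (17 in 9) and Tln2 (33 in 10).

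Myog, the differentiation factor on chromosome 1 (134289989-134292548, plus strand), had 145 UMIs in cluster 6, and all came from 2 of these barcodes. The fifth control barcode by depth had 45 and the deepest Keap1 cKO barcode had 100. No barcode of clusters 1, 5 or 18 had a Myog UMI, and cluster 19, where skeletal fibre markers led in 31 of 31 barcodes, had 2 in 1 barcode. The deepest Keap1 cKO barcode was also the only one of the 10 without Pax7, and it held 9 UMIs of the determination factor Myod1, 6 of the fusion protein Mymk, 41 of the embryonic actin Actc1 and 222 of the cell cycle inhibitor Cdkn1c. The Myog-positive control barcode held 6 Pax7, 0 Myod1, 0 Actc1 and 21 Cdkn1c UMIs. Markers of finished skeletal fibres had 6 UMIs over the 7 control and 3 over the 3 Keap1 cKO barcodes, whereas in control cluster 19 they were at 210562 CPM (UMIs per 1000000).

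The 2 contractile genes given as mural markers lay in the same barcodes. Acta2 (chromosome 19, 34241090-34255590, minus strand) had 239 UMIs in cluster 6, of which 234 (97.9%) were in the 10 myogenic barcodes, with 5, 13, 17, 8, 14, 67 and 41 in the control and 10, 3 and 56 in the Keap1 cKO barcodes. Tagln (chromosome 9, 45929619-45936058, minus strand) had 74 UMIs, of which 68 (91.9%) were in these barcodes, mainly in 2 control barcodes with 30 and 27. The other 290 barcodes held 5 and 6 UMIs. Of the other mural markers, Rgs5, Cnn1 and Lmod1 were at 0 UMIs in cluster 6, Kcnj8 had 2 and Notch3 was in the myogenic barcodes, while Myh11 was not analysed here. C1qtnf3 (chromosome 15, 10952332-10980150, plus strand), placed among the fibroblast markers, had 42 of 67 UMIs (62.7%) in 9 of the 10 myogenic barcodes. Col1a1 was low there, with 0 to 4 UMIs per barcode, while Col3a1 had 178 UMIs in all 10. All fibroblast markers together were at 2624 CPM in the control set against 35146 CPM in control cluster 1. The lymphatic transcription factor gene Prox1 had 24 of its 44 UMIs in the myogenic barcodes, where Ccl21a and Mmrn1 were at 0.

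**Figure D3:**
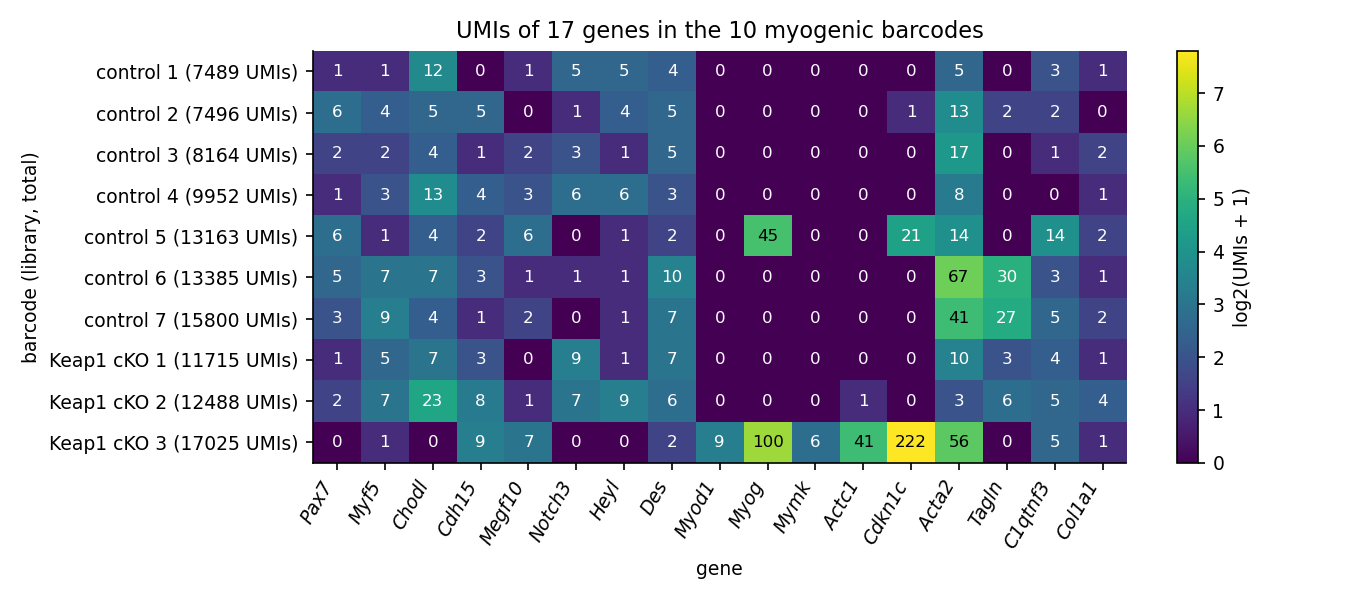
UMIs of 17 genes (horizontal) in the 10 myogenic barcodes of cluster 6 (vertical, ordered by library and depth), coloured by log2(UMIs + 1) with the UMI count printed. Myf5 and Acta2 have UMIs in all 10 barcodes, Pax7 in 9 and Myog in 2.

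The 14 other barcodes over 5000 UMIs were all from the control library and held 27.4% of the UMIs of the cluster. Of these, 8 had 5026 to 6327 UMIs and 89 to 197 fibroblast marker UMIs, with at most 10 of any other type. Another 3, at 11597, 13874 and 15049 UMIs, held 175, 164 and 231 fibroblast UMIs beside 22, 27 and 39 T cell marker UMIs. Ccl5 had 109 UMIs in 3 of the 14 barcodes, 101 of them in the barcode of 15049 UMIs. A barcode of 23718 UMIs held 365 fibroblast and 11568 erythroid UMIs, and 2 of 25619 and 31967 UMIs held 344 and 475 fibroblast beside 288 and 455 keratinocyte UMIs. So 6 of the 14 held markers of 2 lineages at high depth. No doublet caller was run, and whether these barcodes are doublets was not tested.

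In the Keap1 cKO library, where no barcode joined 2 or more lymphatic UMIs to at least 5% hemoglobin, the 47 hemoglobin barcodes had 500 to 2568 UMIs (median 685) and 5.03 to 59.1% hemoglobin, and fibroblast markers were at 56499 CPM in their sum, close to the 52903 CPM of cluster 1 in that library. In cluster 6 the control library had 3 such barcodes. By the same rule, cluster 10 had 74 control and 2 Keap1 cKO barcodes among its 229 of at most 3291 UMIs. So shallow hemoglobin barcodes were not particular to the Keap1 cKO library. Malat1, a nuclear RNA, was detected in 47 of 47 Keap1 cKO hemoglobin barcodes of cluster 6. Among the 101 remaining barcodes Malat1 was at 0 in 11 of 38 control and 25 of 63 Keap1 cKO barcodes. Gm42418, placed in the same list of nuclear RNAs, went the other way. It was at 48073 CPM in the Keap1 cKO hemoglobin set and at 171223 CPM in the remaining Keap1 cKO barcodes, with UMIs in all 47 and all 63. The genes named next were picked from the highest ones of the hemoglobin set against the remaining Keap1 cKO barcodes. They are the immediate early genes Fos (31 against 9 UMIs, log2 ratio 2.50, 1.39 to 3.76) and Egr1 (48 against 14, 2.49, 1.61 to 3.47). The others are the nuclear RNA Neat1 (25 against 6, 2.77, 1.45 to 4.35) and the fatty acid binding protein gene Fabp4 (23 against 4, 3.24, 1.69 to 5.23). Fabp4 lay in 9 of the 47 barcodes, with up to 9 UMIs in 1. The share of all genes past 2-fold is not given for this comparison.

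The 28 control barcodes of the keratinocyte set held 239 keratinocyte marker UMIs (1.23 to 22.1 per 1000) beside 731 fibroblast UMIs, and the Keap1 cKO library had 1 such barcode.

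The 101 remaining barcodes had medians of 902 (control, 529 to 4118) and 836 UMIs (Keap1 cKO, 505 to 4234). Their fibroblast markers were at 28878 CPM in the control and 43875 CPM in the Keap1 cKO library, against 35146 and 52903 in cluster 1 and 30807 and 48643 in cluster 5. Across genes, log2(CPM + 10) of their sum correlated with cluster 1 at r = 0.911 and with cluster 5 at r = 0.905, over 11528 and 10576 genes. It correlated at r = 0.637 with cluster 4 (11061 genes), at 0.605 with cluster 2 (9842 genes) and at 0.406 with lymphatic cluster 18 (3813 genes). These correlations are across genes, which are not independent replicates, and share the libraries.

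How cluster 6 differs from both deep clusters depended on which of its barcodes were summed. Over all 300, 8.46% of the 11749 genes tested were at least 2-fold higher than in cluster 1 and 9.43% were at least 2-fold lower, and against cluster 5 these shares were 8.56% and 9.04% of 10877 genes. The 12 highest genes by the fixed rule were Myog, Mmrn1, Ccl21a, Ccl5, Acta2, Col17a1, Chodl, Lyve1, Wnt4, Krt5, Lgals7 and Ccnd1. Mmrn1 had 89 UMIs against 5 in cluster 1 (log2 ratio 8.11, 6.84 to 9.77), Ccl21a 511 against 31 (8.0, 7.48 to 8.58) and Acta2 239 against 92 (5.34, 4.99 to 5.70). Myog, at 0 in both deep clusters, was at least 9.56 higher in log2 against cluster 1 and at least 8.91 against cluster 5. Tagln was 3.09 and C1qtnf3 1.11 higher in log2 than in cluster 1, and 2.49 and 1.85 higher than in cluster 5. Most of these genes are ones found in the myogenic, lymphatic, keratinocyte and lymphocyte barcodes described above.

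The 101 remaining barcodes had fewer higher genes and about the same share of lower ones. Of 3453 genes tested against cluster 1, 0.927% were at least 2-fold higher and 9.99% at least 2-fold lower, and against cluster 5 the shares of 3412 genes were 1.17% and 9.7%. Intervals lying wholly beyond 2-fold were found for 9 of the higher and 5 of the lower genes against cluster 1, and for 9 and 1 against cluster 5. Lymphatic, keratinocyte and myogenic markers are low there by the way the set was made. Acta2, at 5 UMIs, was still 2.15 higher in log2 than in cluster 1 (0.50 to 3.43) over both libraries. All 5 UMIs lay in Keap1 cKO barcodes, and the 38 control barcodes had 0. The sums compared hold unlike shares of the libraries, so this ratio is not one within a library.

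Matrix genes stood lower in the whole of cluster 6 than in cluster 1, and in its remaining barcodes by less. Of 16 measured fibrillar and fibril-associated collagens, 0 were at least 2-fold higher and 4 lower than in cluster 1 (median log2 ratio -0.80), and in the remaining barcodes 0 of 14 passed 2-fold either way (median -0.18). Elastic fibre genes went from 10 of 17 lower (median -1.12) to 2 of 15 (-0.20), and small proteoglycans and matrix proteins from 14 of 22 (-1.14) to 2 of 19 (-0.29). Over all genes tested 9.43% and 9.99% were lower, with medians of -0.06 and -0.16, so the counts in the remaining barcodes were near those of all genes. The pooled sums mix the libraries unevenly, since 65482 of 115831 UMIs of the remaining barcodes and 2853139 of 9487537 of cluster 1 were from Keap1 cKO mice. Within the control and the Keap1 cKO library the medians against cluster 1 were -0.12 and -0.53 for collagens, -0.60 and -0.33 for elastic fibre genes, and -0.34 and -0.41 for proteoglycans. The most abundant collagen, Col3a1, was at -0.81 (-0.85 to -0.77) over all of cluster 6, and in the remaining barcodes at -0.18 (-0.31 to -0.04) within the control and -0.25 (-0.33 to -0.17) within the Keap1 cKO library. Col1a1 was at -0.74 (-0.80 to -0.69), and at 0.10 (-0.07 to 0.27) and -0.11 (-0.21 to -0.01). Dcn, decorin, was at -1.33, and at -0.63 and -0.41. Among the 12 lowest genes against both clusters, the thrombospondin Thbs1 and the collagen Col8a1 lay within 2-fold in the remaining barcodes (-0.36 and -0.14 against cluster 1), while Csf1, the macrophage growth factor, was at -1.08 (-2.15 to -0.20).

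Genes that differ between clusters 1 and 5 were compared over both libraries and within each, because the libraries differ in these genes. Of the list that includes Inmt and Cilp, which lead cluster 1, 6 of 11 measured genes were at least 2-fold lower than in cluster 1 over both libraries (median -1.05), beside 9.99% of all genes. Against cluster 5, 3 of 4 were at least 2-fold higher (median 1.11), beside 1.17% of all genes. The list holds genes that lead cluster 1 and was chosen with earlier results of these data known. Its place under cluster 1 and above cluster 5 is therefore partly set by that choice, and the shares of all genes are no like measure. Only 4 of its genes passed the count limits against cluster 5. Within the libraries the median against cluster 1 was -0.83 over 7 genes (control) and -1.0 over 4 (Keap1 cKO). Inmt, a methyltransferase, had 20 UMIs in control barcodes, at -0.37 (-1.09 to 0.26) against cluster 1 and 3.84 (3.07 to 4.54) against cluster 5, and 1 UMI in Keap1 cKO barcodes. Of 12 adventitial fibroblast genes 0 passed 2-fold against cluster 1 (median -0.03) and 2 were lower than in cluster 5 (median -0.55), beside 9.7% of all genes. The fibrillin gene Fbn1 was at -0.04 (control) and -0.02 (Keap1 cKO) against cluster 1, and at -0.99 (-1.33 to -0.67) and -0.63 (-0.82 to -0.44) against cluster 5. Pi16 was at 0.08 and -0.23 against cluster 1, and at -0.65 and -0.37 against cluster 5. So Inmt in the control library lay near cluster 1 and apart from cluster 5. Fbn1 lay nearer to cluster 1 than to cluster 5 in both libraries, though within 2-fold of cluster 5. By its median, the list that includes Inmt and Cilp lay under cluster 1 in both libraries. A sum of barcodes at these levels cannot tell a mixture of both fibroblast types from an intermediate one.

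Between the libraries, the makeup of cluster 6 moved with its genes. Over all its barcodes, 4.88% of 4346 genes were at least 2-fold higher and 13.6% at least 2-fold lower in the Keap1 cKO than in the control library. Of the 8 keratinocyte markers 7 were lower (median -2.38) and of 6 measured lymphatic markers 4 were lower (median -2.51). The keratinocyte markers had 932 UMIs in the 44 lymphatic and keratinocyte barcodes and 871 in the other deep control barcodes, 288 and 455 of them in 2 barcodes, while the 49 lymphatic and hemoglobin barcodes had 117. Ccl21a had 21 against 490 UMIs (-2.92, -3.62 to -2.29), Mmrn1 3 against 86 (-3.22), Krt5 12 against 430 (-3.5), Ptn 1 against 96 (-5.0) and Ccl5 0 against 197. Outside the mixed sets, which were chosen for lymphatic UMIs, 21 control and 19 Keap1 cKO UMIs of Ccl21a lay in 1 barcode each. Acta2 had 74 against 165 UMIs (0.47, 0.05 to 0.87) and Tagln 13 against 61 (-0.61, -1.59 to 0.27), and the few myogenic barcodes hold nearly all of these. S100a8 and S100a9, the calprotectin subunits, had 73 against 1 and 53 against 0 UMIs, and were also higher in cluster 1 (7.68 and 7.22). Actc1 and Cdkn1c were among the 8 highest genes through the 1 Keap1 cKO barcode that held 41 and 222 UMIs.

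In the 101 remaining barcodes, 11.4% of 771 genes were at least 2-fold higher and 12.2% at least 2-fold lower, against 6.41% and 5.85% in cluster 1 and 5.86% and 7.12% in cluster 5. The intervals of 20 of the 88 higher and 18 of the 94 lower genes lay wholly beyond 2-fold, and the shares are not comparable with those of the far deeper clusters. Eln, elastin, had 102 UMIs over the 63 Keap1 cKO barcodes, in 30 of them and up to 26 in 1 barcode. The 38 control barcodes held 4 (log2 ratio 4.29, 2.89 to 6.20). The Eln ratio was 3.78 in cluster 1 and 4.21 in cluster 5. Lox, the enzyme that crosslinks collagen and elastin, was 4.58, 3.31 and 4.58 in the same order. Cthrc1, a secreted protein of collagen-producing fibroblasts, had 63 UMIs in 29 Keap1 cKO barcodes, up to 18 in 1 barcode, against 0 in the control. It was at least 4.01 higher in log2, and 5.44 and 5.51 higher in clusters 1 and 5. Col1a1 was 1.08 higher (0.89 to 1.28), beside 1.29 and 1.40. Over all of cluster 6, with the control mixed sets included, it was 2.04. Gsn, gelsolin, was at -2.81 in log2 (-2.31 and -2.62 in clusters 1 and 5), and Inmt had 1 against 20 UMIs (-4.70). Dcn, at -0.21 (-0.40 to -0.02), moved little.

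As lists, 11 measured collagens had a median log2 ratio of 0.80 and 11 elastic fibre genes of 0.73 between the libraries in the remaining barcodes. Immediate early genes respond within minutes to handling and signals. Of these, 8 of 10 were at least 2-fold lower in the remaining Keap1 cKO barcodes (median -1.67), beside 12.2% of all genes. Fos was at 9 against 35 UMIs (-2.34) and Egr1 at 14 against 55 (-2.35). Single control barcodes varied from 0 to 29.5 UMIs of the list per 1000 (median 4.37). Keap1 cKO barcodes had 0 to 13.4 (median 2.57), so high control barcodes weigh on the ratio of sums. In cluster 1 Fos and Egr1 were at -1.02 and -1.24. Over all of cluster 6 the list was nearly level, at 6875 CPM in the control and 6630 CPM in the Keap1 cKO library, with 1 of 15 genes higher and 1 lower (median -0.27). The 47 Keap1 cKO hemoglobin barcodes, which are outside this sum, held 31 Fos and 48 Egr1 UMIs.

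Keap1 itself, the adaptor that directs NRF2 to degradation, had 9 UMIs in the Keap1 cKO and 14 in the control barcodes of cluster 6 (log2 ratio 0.99, -0.40 to 2.30). Counting from the 3′ end may lie outside the deleted exons, so this value does not check the genotype. Of 17 measured NRF2 target genes in cluster 6, 0 were at least 2-fold higher and 5 were at least 2-fold lower (median -0.64), beside 4.88% and 13.6% of all genes (median -0.13). The control sum includes the 93 mixed barcodes. In the remaining barcodes 6 targets were measured, of which 0 were higher and 2 lower (median -0.71), beside 11.4% and 12.2% of all 771 genes. With only 6 targets these counts do not show whether the list moved.

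**Figure D4:**
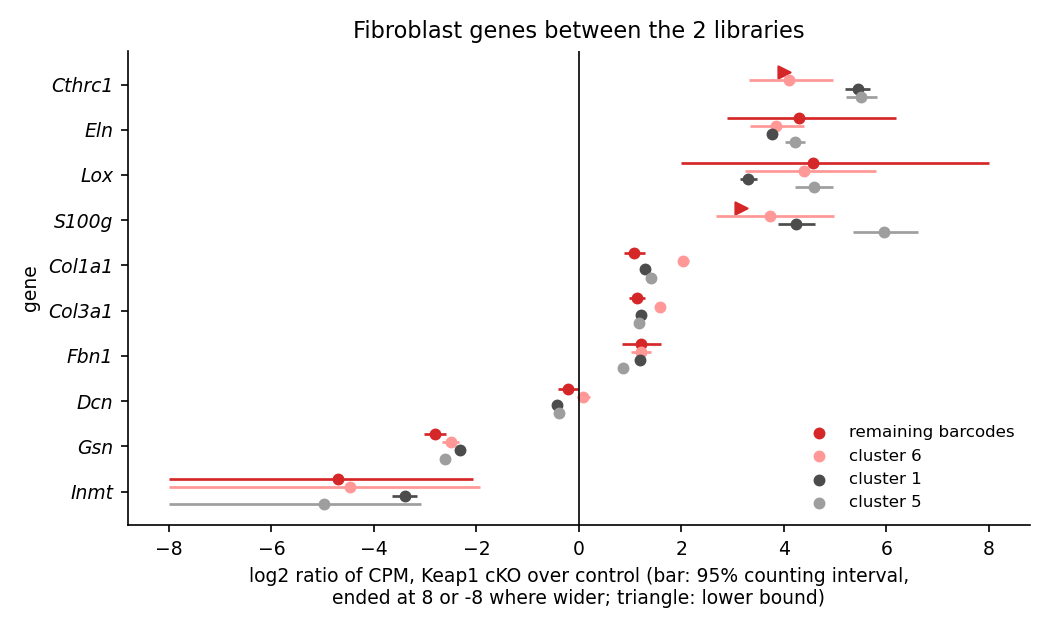
Log2 ratio of CPM, Keap1 cKO over control, for 10 fibroblast genes in the remaining barcodes, in all of cluster 6 and in clusters 1 and 5, with 95% counting intervals as bars (ended at 8 or -8) and triangles for lower bounds. For Eln, Lox, Cthrc1 and Col1a1 all 4 values lie above 0, and for Gsn and Inmt all 4 lie under 0.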

How the data were processed

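Gene expression was measured by single-cell RNA-seq in 1 control and 1 Keap1 cKO library. The deposited values are the natural log of UMIs scaled to 10000 per cell plus 1, made by the authors. Per the submitters' processing notes, they used build mm10, Seurat 4.0.2 in R 4.1.1, and Cell Ranger 6.0.1. Cluster numbers and cell types are the authors' deposited ones. From these values whole UMI counts were recovered in 100% of cases (within 0.01) for 18595 genes. Coordinates are from GENCODE vM21 (98.6% of gene names matched).

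UMIs were summed per cluster or set and library, and compared as log2 ratios of CPM with exact conditional binomial intervals, shares with exact binomial intervals. Genes needed at least 20 UMIs over both sums, for the remaining barcodes also 5 expected in the shallower sum, and were counted past 2-fold. A sum of 0 was set to 3 UMIs, and the upper limit of a share at 0 is 3 barcodes. Thinning drew 500 UMIs per barcode. With 1 library per group no test was run. No doublet caller was run. The named genes are the 6 given markers, the 12 highest and 12 lowest against clusters 1 and 5, the 8 highest and 8 lowest between libraries, leading genes of called barcodes and members of lists. The sets of barcodes, the genes named within them and the sums without given sets were chosen after seeing the data. The members and lists were chosen with earlier results of these data known. Scripts were tested on simulated data. Python 3.11.15, numpy 2.4.6, scipy 1.17.1 and pandas 2.3.3 were used.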

Additional observations from a re-analysis of the deposited data

Results flagged for a closer look

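Of 207 named genes looked at, 6 moved at least 2-fold between the libraries in cluster 6 and the opposite way in both deep fibroblast clusters, with every counting interval on its own side of 0. The difference between clusters was not tested, since each library is 1 sample. Cdkn1c, a cell cycle inhibitor, had a log2 ratio of 4.47 in cluster 6 (222 against 31 UMIs), and of -0.65 and -1.37 in clusters 1 and 5. All 222 of its Keap1 cKO UMIs lay in 1 myogenic barcode. The T cell receptor genes Cd3d (-2.83, 1 against 22 UMIs) and Trbc2 (-2.38, 2 against 32) and the leukocyte antigen gene Cd52 (-1.41, 9 against 74) were lower in Keap1 cKO barcodes of cluster 6. In clusters 1 and 5 their ratios were 1.81 and 2.87 for Cd3d, 1.08 and 3.41 for Trbc2, and 1.56 and 3.91 for Cd52. Gsta4, a glutathione transferase, was at -1.71 (9 against 91 UMIs), and at 1.04 and 0.50 in the deep clusters. The nuclear RNA Kcnq1ot1 was at -1.10 (21 against 139 UMIs), and at 0.32 and 0.33.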

How the results depend on the processing

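The cause of the changes below was not tested. Log2 ratios of named genes against clusters 1 and 5 moved beyond their counting intervals for 45 of 60 values among called fibroblasts, 37 of 55 in Keap1 cKO barcodes alone, 37 of 55 in the remaining barcodes and 33 of 62 by the mean CPM of single barcodes, but for 6 of 62 with median-of-ratios scaling. Barcodes called fibroblast were 39.5% (control) and 63.5% (Keap1 cKO) by summed marker UMIs, and in Keap1 cKO 64.3% after thinning to 500 UMIs and 88.2% without barcodes of at least 5% hemoglobin. Without those barcodes 34.1% of control barcodes were called keratinocyte, and the share in Keap1 cKO was 0 by summed UMIs and 0 after thinning. Genes at least 2-fold higher in cluster 6 were 506 (cluster 1) and 404 (cluster 5) from at least 50 UMIs, 2362 and 2501 from at least 1 UMI in each sum, and 32 and 40 in the remaining barcodes. Genes at least 2-fold lower were 1834 and 1515 by the mean CPM of single barcodes, and 345 and 331 in the remaining barcodes. Between libraries 345 genes were higher and 941 lower by the mean CPM, 72 and 123 from 50 UMIs, 1465 and 1336 from 1 UMI in each sum, and 88 and 94 in the remaining barcodes. Lower genes were 323 among called fibroblasts and 390 without both mixed sets. Some values took the other sign with intervals that include 0, so no reversal is shown for them. In the remaining barcodes these were Krt5 (-0.51, -2.14 to 0.72, against cluster 1 and -0.73, -2.36 to 0.50, against cluster 5), Pi16 (0.10, -0.11 to 0.29, against cluster 1) and Lyve1 (-0.22, -5.55 to 2.31, against cluster 5). Without barcodes over 5000 UMIs it was Tagln against cluster 5 (-0.23, -1.71 to 0.93). Between libraries Cdkn1c was at -0.22 among called fibroblasts and at -0.40 without barcodes over 5000 UMIs, in both with 0 Keap1 cKO UMIs and an upper limit above 0. Ccl21a also took the other sign, with an interval that excludes 0, at 1.14 (0.21 to 2.08) without both mixed sets. Their removal takes out most control Ccl21a by their definition. Of what was left, 21 control and 19 Keap1 cKO UMIs lay in 1 barcode each, so this is no measure of the libraries. The sums without sets or deep barcodes were added after seeing the data. No paired analysis was possible because each group is 1 library. At about 1000 UMIs per barcode, genes with few UMIs in cluster 6 were not measurable per barcode.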
